A study of Mus musculus with 20 samples.

Results

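The GABA-A receptor subunit genes Gabra2, Gabra3, Gabra4, Gabra5, Gabrb1, Gabrb2 and Gabrd were followed in amygdala RNA of mice with or without the serotonin transporter 5-HTT. Members were all probe sets of the array whose single gene symbol is one of these 7 genes, which gave 9 probe sets of 28767 (21776 of which carry 1 symbol, for 19933 genes). Gabrb2 has 3 probe sets, which share a gene and are not independent of each other, and every other member has 1.

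RNA of 20 male mice, 7 months old and C57BL/6 by the labels (C57BL/6J in the study's methods), was hybridised to whole-transcript gene arrays, 1 mouse per array, with the amygdalae of both sides combined. The 4 groups held 5 mice each, and their names join the genotype (WT or KO) to the treatment (con or stress). WT mice are 5-HTT +/+ and KO mice 5-HTT -/-, all from heterozygous parents, and in the KO mice 5-HTT is inactivated in every cell and throughout development. All were housed singly from 5 months on and had passed an earlier elevated plus-maze test. Stress was 1 min in water of 22 °C by the labels, con was 1 min left in the home cage, and tissue was lysed within minutes, so that only early changes of transcript level could be measured.

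GABA-A receptors are chloride channels opened by the inhibitory transmitter GABA and built of subunits around a central pore. Alpha and beta subunits together form the GABA site, alpha subunits with a gamma subunit form the benzodiazepine site, and receptors with the delta subunit lie outside synapses and respond to low ambient GABA and to neurosteroids. In the amygdala, local and intercalated GABA neurons restrain output to fear and anxiety circuits through these receptors.

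Values are log2 signals as normalised by the authors, and a difference of 1 is a doubling of signal. Signals of different probe sets are not on a common scale and are compared here between groups only. Array medians lay between 6.59 and 6.82 and pairs of arrays correlated at 0.948 to 0.996. Slc6a4, the gene of 5-HTT, had a signal of 5.82 to 7.82 in the 10 WT arrays and 8.10 to 8.38 in the 10 KO arrays, a log2 difference of 1.71 (SE 0.16, limma, adjusted p = 0.000115). The genotypes did not overlap, and it was the arrays labelled KO that had more signal. The sources used here do not say where the Slc6a4 probes lie against the deleted part, so the signal does not check the labels. Every direction by genotype below rests on the labels, and the study's methods state that the mice were genotyped by gel electrophoresis of DNA fragments. WT con replicate 1 and WT stress replicate 1 stand apart from the other arrays, with median correlations of 0.978 and 0.961 with the rest. Several results whose size or call depends on them are also given without them. The dissected region should hold pallial excitatory markers and striatal and central amygdala markers. Of these, 11 of 11 and 10 of 10 genes were measured above a mean log2 value of 5 in every group. So were the markers of every other cell type list, thalamus and choroid plexus included, so this level does not check the dissection.

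The genes lie at 5 loci in GRCm38.p6. Gabra2 (chromosome 5, 70958392 to 71095849), Gabra4 (71569734 to 71658308) and Gabrb1 (71657921 to 72149572) lie in one cluster of 1191 kb, where Gabra4 and Gabrb1 run in opposite directions and share 388 bases at their starts. Gabra5 lies on chromosome 7 (57407669 to 57591016), Gabrb2 on chromosome 11 (42419515 to 42632591), Gabrd on chromosome 4 (155384979 to 155398098) and Gabra3 on chromosome X (72432676 to 72656919). The sources used here do not give where within each gene the probes lie, in exons or UTRs, so the 3 Gabrb2 probe sets cannot be assigned to exons.

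Promoter windows of RefSeq (GRCm38.p6, 250 bases before to 50 after each start) were found for 6 of the 7 genes, 10 windows in all, with none matched for Gabrd. The 100 bases before the first listed start of Gabrb2 and before that of Gabra4 are shown because these genes had the smallest p and the largest difference between KO stress and KO con. The Gabrb2 stretch is chr11:42420340-42420439 on the plus strand, and its capitals mark the letters TATAAA, known as the TATA box. The Gabra4 stretch is chr5:71658309-71658408 on the minus strand, and its capitals mark a GC box, the letters GGGCGG read on the opposite strand.
Gabrb2: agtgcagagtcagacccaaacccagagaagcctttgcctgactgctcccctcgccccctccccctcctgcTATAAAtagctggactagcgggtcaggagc
Gabra4: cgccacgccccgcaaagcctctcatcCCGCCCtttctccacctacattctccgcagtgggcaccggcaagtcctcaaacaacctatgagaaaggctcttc

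In Gabrb2 the TATA letters began 30 bases before the start on the gene's own strand. Searched on both strands, TATAAA was in 13.6% of all 32851 promoter windows, GGGCGG in 35.7%, CCAAT in 37.4% and TGACG, the core of the cAMP response element, in 20.8%. Among the members, TATAAA was found in Gabrb2 and Gabra3, GGGCGG in Gabra2, Gabra4 and Gabrb2, CCAAT in Gabra2, Gabra3, Gabra4, Gabra5 and Gabrb2, and TGACG in Gabrb2, where it spans the start. The EGR letters GCGTGGGCG (0.612% of all windows) were in no member window. Both Gabra3 windows held 0 CpG, as do 5.43% of all windows, against 25 CpG in the windows of Gabra2 and of the first Gabrb1 start and a median of 7 over all windows. These matches describe the letters and say nothing of binding.

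**Figure D1:**
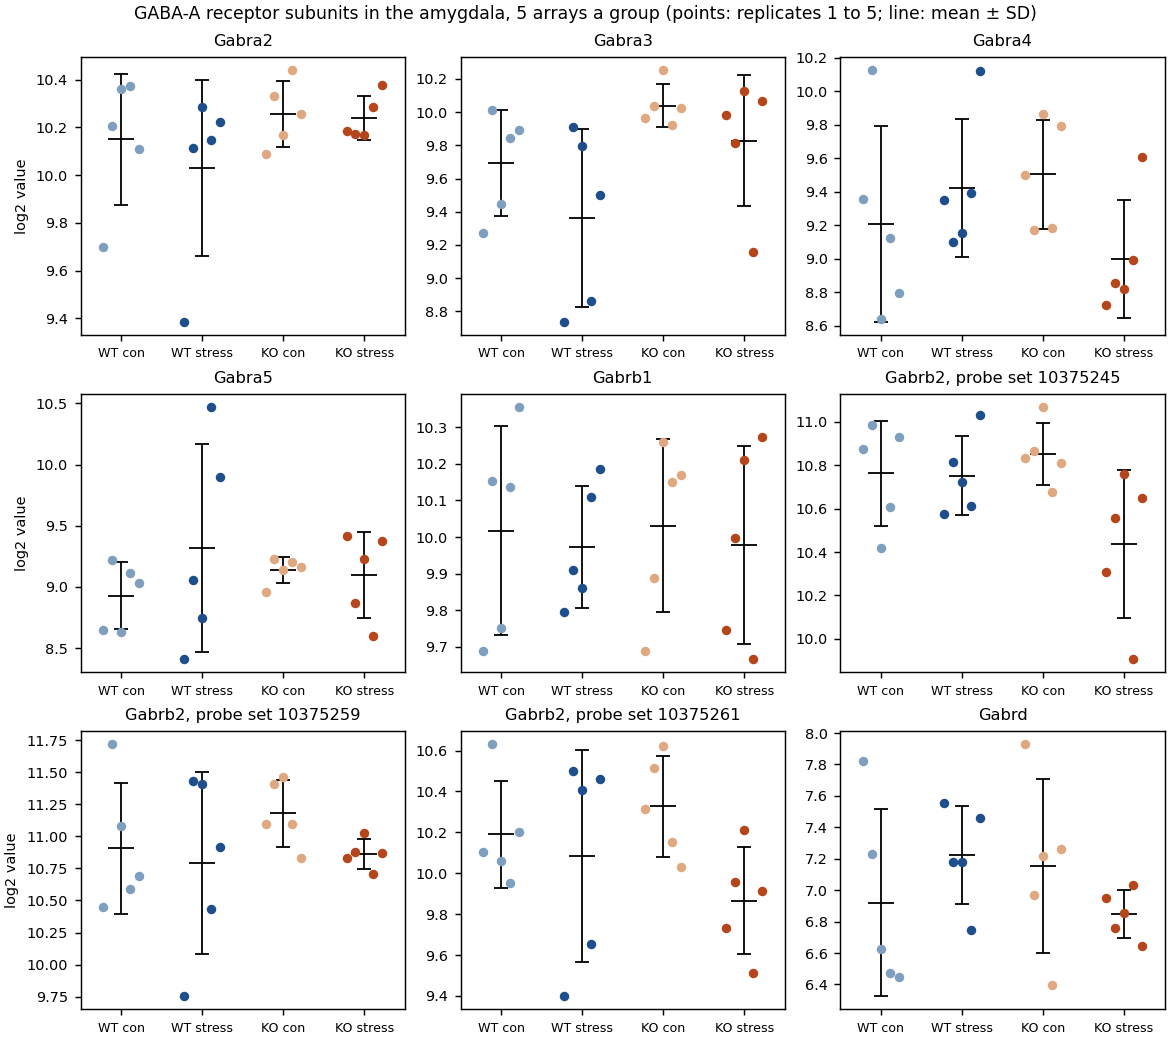
Normalised log2 value (y axis) of the 9 probe sets in the 4 groups (x axis), with 1 point per array and the mean ± SD of 5 arrays as a line with bars. The KO stress arrays of Gabrb2 probe set 10375245 reach 10.76 at most, while the KO con arrays lie between 10.68 and 11.07, and Gabra2 in WT stress replicate 1 sits at 9.38, apart from the other 4.

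Across the 4 comparisons of the design, no subunit passed the test over all 28767 probe sets, and none passed the combined criterion that the study's methods name (fold over 1.5 and unadjusted p under 0.05). The smallest p belonged to Gabrb2, a beta subunit abundant in forebrain synaptic receptors, whose signal was lower in KO stress than in KO con. At an unadjusted p under 0.05, 2 of the 9 probe sets differed between KO stress and KO con, 1 between KO and WT after stress, and 0 in the other 2 comparisons. No probe set had groups that did not overlap in any of the 4.

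The alpha subunits set where in a neuron and how a receptor is modulated. Gabra2, the alpha 2 subunit of the axon initial segment and a known site of anxiolytic benzodiazepine action, had means of 10.15 ± 0.27 in WT con and 10.03 ± 0.37 in WT stress against 10.26 ± 0.14 (KO con) and 10.24 ± 0.09 (KO stress) (SD, n = 5 each, as for all means below). The WT spread came mostly from replicates 1, at 9.70 in WT con and 9.38 in WT stress. The other 18 arrays lay between 10.09 and 10.44. The log2 differences of Gabra2 in the 4 comparisons ran from -0.12 to 0.21, at an unadjusted p of 0.177 or more.

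Gabra3, the alpha 3 subunit, found in monoaminergic neurons and the amygdala, was 9.27, 10.01, 9.45, 9.84 and 9.89 in WT con and 8.74, 9.91, 9.79, 8.86 and 9.50 in WT stress. In KO con it was 9.96, 10.03, 10.25, 9.92 and 10.02, and in KO stress 9.98, 9.81, 10.13, 9.16 and 10.06. The KO con arrays were tightly grouped (SD 0.13) and the WT stress arrays widely spread (SD 0.54). The lowest KO con value, 9.92, lay just above the highest WT stress value, 9.91. That pair of groups differs in genotype and condition at once and was not a comparison of the design. No share of all probe sets was counted for it. Averaged over both conditions, Gabra3 was higher in KO by 0.41 (SE 0.16, unadjusted p = 0.0193, limma adjusted p = 0.412), with 1 of 9 members and 12% of all probe sets past the unadjusted threshold. Without WT con replicate 1 and WT stress replicate 1 that difference was 0.28 (SE 0.15, limma adjusted p = 0.657), no longer past the unadjusted threshold. Within con the difference was 0.35 (SE 0.22, p = 0.14 by limma, exact two-sided permutation p = 0.0317), and within stress 0.47 (SE 0.22, limma p = 0.0512, exact two-sided permutation p = 0.167).

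Gabra4, the alpha 4 subunit, partner of delta in extrasynaptic receptors of thalamus, striatum and dentate gyrus, was 9.36, 10.13, 8.64, 9.12 and 8.79 in WT con and 9.35, 9.10, 9.15, 9.39 and 10.12 in WT stress. In KO con it was 9.50, 9.17, 9.86, 9.18 and 9.80, and in KO stress 8.72, 8.86, 8.82, 8.99 and 9.61. Of the KO stress arrays, 4 lay below every KO con array and replicate 5 lay among them. KO stress minus KO con was -0.50 (SE 0.26, limma p = 0.0665, exact two-sided permutation p = 0.0556), while WT stress minus WT con was 0.22 (SE 0.26, limma p = 0.413, exact two-sided permutation p = 0.5). The test of the difference between these 2 effects, the interaction, gave -0.72 (95% interval -1.48 to 0.05, limma adjusted p = 1). With 1 array left out in turn, the WT difference of Gabra4 ran from 0.04 (without WT stress replicate 5) to 0.45 (without WT con replicate 2), the KO difference from -0.65 to -0.41, and the interaction from -0.95 to -0.54. Among the members Gabra4 had the largest interaction by size. A score of thalamic markers moved with Gabra4 across arrays, as described further on. With that score as a covariate the interaction of Gabra4 was -0.90 (SE 0.25) and the difference between KO stress and KO con -0.49 (SE 0.17), both past the unadjusted threshold of 0.05 and neither past the adjusted one (limma adjusted p = 1).

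Gabra5, the alpha 5 subunit of extrasynaptic receptors, best known from hippocampal pyramidal cells, was 8.65, 9.22, 8.63, 9.12 and 9.03 in WT con and 8.41, 9.05, 8.75, 10.47 and 9.90 in WT stress. The highest 2 values of all 20 arrays were thus WT stress replicates 4 and 5, while replicate 1 of that group was the lowest of all. KO con (8.96 to 9.23) and KO stress (8.60 to 9.41) stayed between these extremes. The difference between WT stress and WT con was 0.39 (SE 0.29, limma p = 0.196, exact two-sided permutation p = 0.381), and without WT stress replicate 1 it was 0.61 (SE 0.27, limma adjusted p = 0.951), past the unadjusted threshold. Without WT stress replicate 4 it was 0.10 (SE 0.23), and without WT stress replicate 5 it was 0.24 (SE 0.30). The hippocampal marker score of WT stress reached 1.29, against at most 0.11 in the other groups.

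The beta subunits carry the GABA site with alpha. Gabrb1, the beta 1 subunit, had the smallest range of the members over all 20 arrays (0.69), with means of 10.02 ± 0.29 in WT and 10.03 ± 0.24 in KO for the con groups, and of 9.97 ± 0.17 in WT and 9.98 ± 0.27 in KO for the stress groups. Its differences lay between -0.05 and 0.01 in the 4 comparisons. The 95% interval in WT stress against WT con ran from -0.36 to 0.27, and the others had the same width. Gabrb2, the beta 2 subunit, was measured by all 3 of its probe sets. Probe set 10375245 was 10.83, 10.87, 11.07, 10.68 and 10.81 in KO con and 10.31, 10.56, 10.76, 9.91 and 10.65 in KO stress. Of the KO stress arrays, 4 lay below every KO con array. The difference was -0.42 (SE 0.14, 95% interval -0.72 to -0.11, limma p = 0.01, adjusted p = 1, exact two-sided permutation p = 0.0159), or 1.33-fold lower. With any 1 array left out it stayed past the unadjusted threshold, at -0.50 to -0.28.

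Probe set 10375261 of Gabrb2 was 10.32, 10.51, 10.62, 10.15 and 10.03 in KO con and 9.73, 9.96, 10.21, 9.51 and 9.92 in KO stress, again with 4 of the 5 stress arrays below every con array. The difference was -0.46 (SE 0.21, limma p = 0.0373, adjusted p = 1, exact two-sided permutation p = 0.0238). It was no longer past the unadjusted threshold without KO con replicate 1 (-0.46), 2 (-0.41) or 3 (-0.39), or without KO stress replicate 1 (-0.43) or 4 (-0.37). Probe set 10375259 was 11.10, 11.41, 11.47, 11.10 and 10.83 in KO con and 10.83, 10.88, 11.03, 10.71 and 10.87 in KO stress, with 1 stress array below every con array. Its difference was -0.32 (SE 0.28, limma p = 0.265, exact two-sided permutation p = 0.0397). Limma pools the spread of all 4 groups, and this probe set varied more in WT (9.75 to 11.72) than in KO.

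For the mean of the 3 Gabrb2 probe sets the KO difference was -0.40, with 4 of 5 KO stress arrays below every KO con array and an exact two-sided permutation p of 0.0238 (the smallest that 5 against 5 arrays allow is 0.00794). In WT the same mean differed by -0.08 (exact two-sided permutation p = 0.754). For probe set 10375245 the interaction, which tests whether these effects differ, was -0.40 (SE 0.20, 95% interval -0.83 to 0.02, limma adjusted p = 1). With 1 array left out in turn it ran from -0.49 to -0.27. Without WT con replicate 1 and WT stress replicate 1 it was -0.48 (SE 0.22), past the unadjusted threshold but not the adjusted one. A difference between the genotypes in the response was thus not shown. After stress, probe set 10375245 was lower in KO than in WT by -0.31 (SE 0.14, limma p = 0.0426, adjusted p = 0.53, exact two-sided permutation p = 0.111), with 3 of 5 KO arrays below every WT array. That difference, too, was no longer past the unadjusted threshold without WT stress replicate 2 (-0.30), 3 (-0.32) or 5 (-0.25), or without KO stress replicate 1 (-0.28) or 4 (-0.18). The other 2 Gabrb2 probe sets differed there by 0.07 (10375259) and -0.22 (10375261), at p of 0.794 and 0.302. Across the 20 arrays, with group means removed, 10375259 and 10375261 correlated at 0.87 and 10375245 with 10375261 at 0.71, but 10375245 with 10375259 only at 0.35.

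Gabrd, the delta subunit of extrasynaptic receptors, was 7.82, 7.23, 6.62, 6.48 and 6.45 in WT con and 7.56, 7.18, 7.18, 6.75 and 7.46 in WT stress. In KO con it was 7.93, 6.97, 7.22, 6.40 and 7.26, and in KO stress 6.95, 6.76, 6.86, 7.03 and 6.64. Replicate 1 was the highest array of WT con, of WT stress and of KO con, and KO stress was the tightest group (SD 0.15). Differences were 0.30 for WT stress against con, -0.31 for KO stress against con, 0.24 for con KO against WT and -0.37 for stress KO against WT, at unadjusted p of 0.173 or more. The interaction of Gabrd was -0.61 (SE 0.37, limma adjusted p = 1). It was -0.84 (SE 0.33, adjusted p = 1) without WT con replicate 1, past the unadjusted threshold, and -0.75 (SE 0.34) without both replicates 1 of WT. It was likewise past that threshold without KO con replicate 4 (-0.80). Leaving out replicate 1 of KO con gave -0.42 (SE 0.35), and the difference between KO stress and KO con was then -0.11 (SE 0.25).

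**Figure D2:**
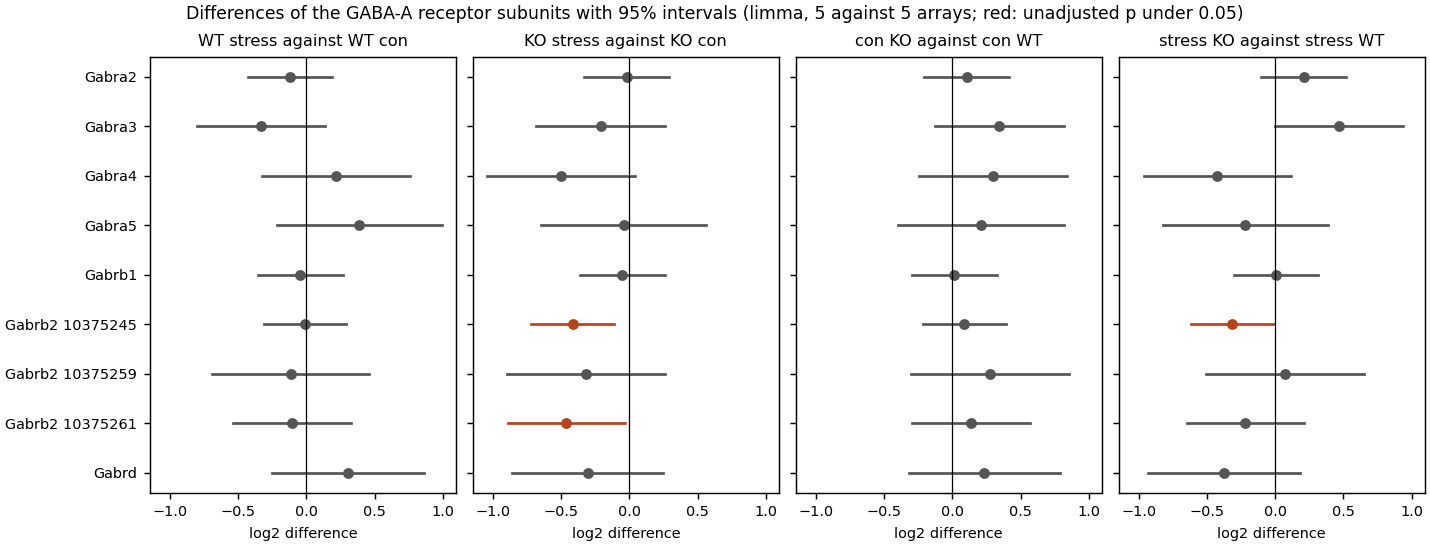
Log2 differences (x axis, points) with 95% limma intervals (lines) of the 9 probe sets (y axis) in the 4 comparisons, each of 5 against 5 arrays, with those at an unadjusted p under 0.05 in red. The red intervals are those of 2 Gabrb2 probe sets in KO stress against KO con and 1 in stress KO against stress WT, and most others span 0 widely.

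Set side by side, the 4 comparisons gave the members different medians. In KO stress against KO con all 9 probe sets had a negative difference, with a median of -0.31 against -0.0016 for all probe sets. Of these 9, 3 are of Gabrb2, and Gabra2, Gabra5 and Gabrb1 differed by only -0.02, -0.04 and -0.05. In con KO against con WT all 9 had a positive difference, with a median of 0.21 against 0.00 for all probe sets. Both comparisons contain the KO con arrays, so their opposite signs are not independent of each other. The medians were -0.04 in WT stress against WT con (3 positive, 6 negative) and -0.22 in stress KO against stress WT (4 positive, 5 negative). For stress averaged over genotypes the median was -0.14 with 0 of 9 at an unadjusted p under 0.05.

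The shares of all probe sets past the same thresholds give the background for these counts. In WT stress against WT con, 3.54% of probe sets had an unadjusted p under 0.05, 0.24% passed the combined criterion, 0.257% had groups that did not overlap and 0% passed the adjusted threshold. In KO stress against KO con the shares were 1.13%, 0.139%, 0.289% and 0%, so that 2 of 9 members, both from Gabrb2, stand beside a background of 1.13%. By the methods' t-test on the same arrays 4 of 9 members (the 3 of Gabrb2, and Gabra4) had an unadjusted p under 0.05, beside 628 of all 28767 probe sets, and 0 passed after adjustment. In con KO against con WT they were 3.57%, 0.0487%, 0.855% and 0%. In stress KO against stress WT they were 9.28%, 0.768%, 1.02% and 0.00348%, and 1 of 9 members is near that background. At an unadjusted p under 0.05 the interaction had 2.52% of probe sets, stress averaged over genotypes 1.67% and genotype averaged over conditions 12%. Past the adjusted threshold these were 0%, 0% and 0.00348%.

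Markers of other tissue moved with the KO comparison in which Gabrb2 was lower. Of 8 choroid plexus markers, 6 were higher in KO stress than in KO con at an unadjusted p under 0.05, with a median difference of 1.31, and their mean log2 level was 6.65 to 7.45 in KO con and 7.23 to 9.93 in KO stress. Of 8 markers of meninges and fibroblasts, 3 were higher, with a median of 0.77 and levels of 7.22 to 7.88 and 7.68 to 9.33. No marker of either list, Ttr of choroid plexus and Dcn of fibroblasts included, had a group mean under a log2 value of 5. With the choroid plexus score as a covariate the difference of Gabrb2 probe set 10375245 was -0.33 (SE 0.17) and that of 10375261 -0.17 (SE 0.20), and with the score of meninges and fibroblasts they were -0.27 (SE 0.15) and -0.26 (SE 0.21), none of them past the unadjusted threshold. In bulk tissue, fewer cells of a type and less RNA per cell cannot be told apart. The part of these tissues in the Gabrb2 difference was not tested further.

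The other genes of GABA signalling were described from lists of 45 measured genes. At an unadjusted p under 0.05, 3 were higher and 4 lower in WT stress against WT con, 0 and 0 in KO stress against KO con, 1 and 0 in con KO against con WT, and 4 and 1 in stress KO against stress WT. The shares of all probe sets past that threshold, in the same order, were 3.54%, 1.13%, 3.57% and 9.28%, so that 5 of 45 after stress is near its background. None passed the adjusted threshold. All 3 genes of GABA synthesis and vesicle loading were among those lower in WT stress. Slc32a1, the vesicular GABA transporter, differed by -0.53 (SE 0.19, exact two-sided permutation p = 0.0714), Gad2, a GABA-synthesising enzyme, by -0.43 (SE 0.20, exact permutation p = 0.159) and its fellow enzyme Gad1 by -0.32 (SE 0.14, exact permutation p = 0.111), each with a limma adjusted p of 1. All 3 thus passed the unadjusted threshold in limma but not in the exact test. Without WT con replicate 1 and WT stress replicate 1 the differences were -0.39 (Slc32a1), -0.36 (Gad2) and -0.27 (Gad1), none past the threshold. With 1 array left out in turn, Slc32a1 kept it each time, Gad1 lost it in 5 of 20 cases and Gad2 in 14 of 20, where Gad2 was -0.27 without WT stress replicate 5.

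Slc32a1 was 10.90, 10.20, 10.77, 10.75 and 10.53 in WT con and 9.81, 10.64, 10.59, 9.91 and 9.56 in WT stress. Replicates 1, 4 and 5 of WT stress were thus below every con array, whereas replicates 2 and 3 lay within the con range, and the same 3 arrays were the lowest of their group for Gad1 and Gad2. In KO stress against KO con the 3 genes differed by -0.01 (Slc32a1), -0.13 (Gad2) and -0.09 (Gad1), at p of 0.502 or more. The interaction of Slc32a1 was 0.52 (SE 0.26, limma adjusted p = 1).

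Markers of other cell types moved in the same WT comparison. Of 11 pallial excitatory markers, 9 had a positive difference, with a median of 0.30 and 2 at an unadjusted p under 0.05, and their mean log2 level was 7.53 to 7.87 in WT con and 7.53 to 8.81 in WT stress. Of 8 hippocampal markers, 7 had a positive difference (median 0.27, 1 past the threshold), with levels of 7.02 to 7.37 and 6.92 to 8.55. Of 10 thalamic markers, 8 had a negative one (median -0.25, 0 past it), with levels of 7.71 to 9.70 and 7.30 to 9.41. The 11 GABAergic interneuron markers had 6 negative differences (median -0.13, 1 past it), with levels of 7.53 to 7.92 and 7.22 to 8.04. The 10 striatal and central amygdala markers had 8 positive differences (median 0.28, 0 past the threshold), with levels of 8.43 to 10.31 and 7.98 to 10.13. The 8 choroid plexus markers had 6 positive differences (median 0.33, 0 past it), with levels of 6.91 to 7.89 and 6.57 to 10.62. No marker of these lists had a group mean under a log2 value of 5. Their part in the differences of Slc32a1, Gad1 and Gad2 was not tested.

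Kctd16, an auxiliary subunit of the metabotropic GABA-B receptor, was higher in WT stress than in WT con by 0.51 (SE 0.18, exact two-sided permutation p = 0.0159), with 4 of 5 stress arrays above every con array. After stress, KO minus WT was -0.56 for Kctd16 (SE 0.18, exact permutation p = 0.00794, the smallest possible), with 5 of 5 KO arrays below every WT array. Both differences of Kctd16 stayed past the unadjusted threshold with any 1 array left out. Without WT stress replicate 1 the differences of Kctd16 were 0.38 (SE 0.17) and -0.43 (SE 0.17). Its interaction was -0.79 (SE 0.25, limma adjusted p = 1). Gabrg1, the gamma 1 subunit prominent in amygdala, was higher in KO than in WT after stress by 0.58 (SE 0.26, exact permutation p = 0.135), with WT stress replicates 1, 4 and 5 at 7.13, 7.27 and 7.57 and the other 2 at 8.52 and 8.49. Without WT stress replicate 1 that difference was 0.41 (SE 0.26), no longer past the unadjusted threshold, which it missed in 7 of 20 cases with 1 array left out. Gabrr2, a rho subunit, had means of 5.96 in WT con and 6.18 in WT stress. The difference was 0.22 (SE 0.09, exact permutation p = 0.00794), with no overlap of the groups. It was no longer past the unadjusted threshold without WT con replicate 2 (0.19) or 4 (0.20) or WT stress replicate 1 (0.19). Akr1c14, an enzyme of neurosteroid synthesis, was 5.78 to 6.04 in KO con and 5.20 to 5.74 in WT con, a difference of 0.36 (SE 0.10, exact permutation p = 0.00794, limma adjusted p = 0.929) with no overlap. Without WT con replicate 1 the difference of Akr1c14 was 0.27 (SE 0.09). All values of Gabrr2 and of Akr1c14 lay below the lowest array median, 6.59, and the background of the arrays was not measured. Groups that do not overlap were found for 0.257% of all probe sets in WT stress against WT con, 0.855% in con KO against con WT and 1.02% in stress KO against stress WT, and these genes were picked from the 45 by their p.

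Among genes that place or traffic receptors, 17 of which were measured, Zdhhc3 (a palmitoyltransferase) and Hap1 (huntingtin-associated protein, in receptor recycling) were higher in KO after stress by 0.32 and 0.47 (SE 0.14 and 0.21, exact permutation p = 0.00794 and 0.151). Without WT stress replicate 1, which had the lowest Zdhhc3 value of all, at 8.82, the differences were 0.15 (SE 0.10) and 0.42 (SE 0.23), neither past the unadjusted threshold. Slitrk3, a synaptic adhesion protein, was higher in WT stress than in WT con by 0.41 (SE 0.19, exact permutation p = 0.19). That difference missed the unadjusted threshold in 16 of 20 cases with 1 array left out, but was 0.58 (SE 0.17) without WT stress replicate 1, past it. The interaction of Slitrk3 was -0.67 (SE 0.27). It stayed past the unadjusted threshold in all 20 cases and did not pass the adjusted one. The lists of GABA uptake and breakdown (5 genes) and of chloride transport (3 genes) held 0 at an unadjusted p under 0.05 in the 4 comparisons.

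**Figure D3:**
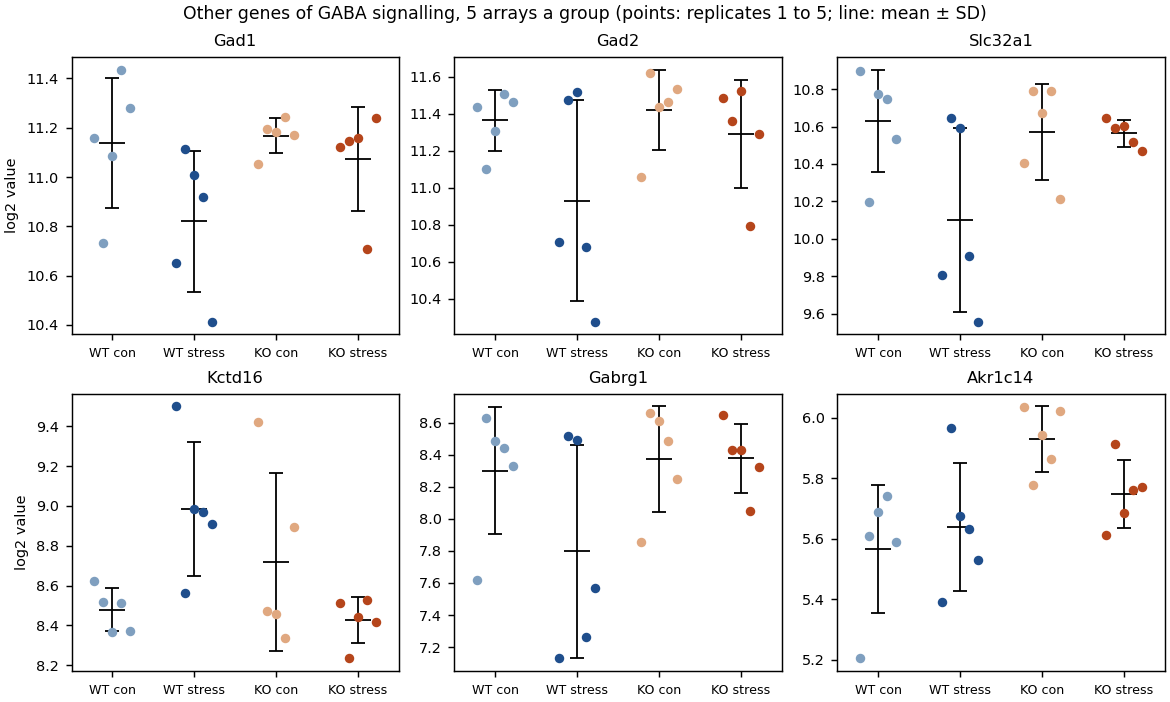
Normalised log2 value (y axis) of Gad1, Gad2, Slc32a1, Kctd16, Gabrg1 and Akr1c14 in the 4 groups (x axis), with 1 point per array and the mean ± SD of 5 arrays. In WT stress, replicates 1, 4 and 5 of Slc32a1 lie at 9.56 to 9.91 while replicates 2 and 3 lie at 10.59 and 10.64.

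The members also varied among arrays within groups, and 21 pairs of subunit genes were compared by the deviations of 20 arrays from their group means (Gabrb2 as the mean of its probe sets). Gabra3 and Gabrb2 had the highest correlation (r = 0.83, rho = 0.85, permutation p = 8e-05 and 6e-05, adjusted p = 0.00168 and 0.00126), which was 0.75 without the 2 arrays farthest from the median of Gabra3. Gabra5 and Gabrb1 correlated positively (r = 0.55, permutation p = 0.00212, adjusted p = 0.0213; rho = 0.59, adjusted p = 0.0771). Gabra2 and Gabrd correlated negatively (r = -0.63, permutation p = 0.00304, adjusted p = 0.0213; rho = -0.59, adjusted p = 0.0907), with -0.52 left without the 2 farthest arrays, WT con replicate 1 and WT stress replicate 1. The other 18 pairs had an adjusted permutation p over 0.05. All values of an array share its RNA, its dissection and its normalisation.

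The spread within groups also followed marker scores, each the mean over its list of log2 values centred on the gene's mean. Of 84 relations of 7 subunits with 12 scores, 0 had an adjusted permutation p under 0.05 for Pearson's r and 2 had one for Spearman's rho. These were Gabrb1 with striatal and central amygdala markers (r = -0.68, permutation p = 0.00085, adjusted 0.0714; rho = -0.66, permutation p = 0.00109, adjusted 0.0483) and Gabra3 with meninges and fibroblasts (r = -0.63, adjusted p = 0.169; rho = -0.77, permutation p = 0.00115, adjusted 0.0483). Without the 2 arrays with the farthest scores r was -0.66 and -0.80. Gabra5 had its highest r with hippocampal markers (r = 0.84, rho = 0.66, permutation p = 0.0104 and 0.0217, adjusted 0.169 and 0.206), and 0.69 without WT stress replicates 4 and 5. Gabra4 had its highest r with thalamic markers (r = 0.76, rho = 0.50, permutation p = 0.00175 and 0.0457, adjusted 0.0735 and 0.247), and 0.55 without WT con replicate 2 and WT stress replicate 5. Gabrd had a positive r with striatal and central amygdala markers (r = 0.58, rho = 0.51, adjusted permutation p = 0.172 and 0.247).

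**Figure D4:**
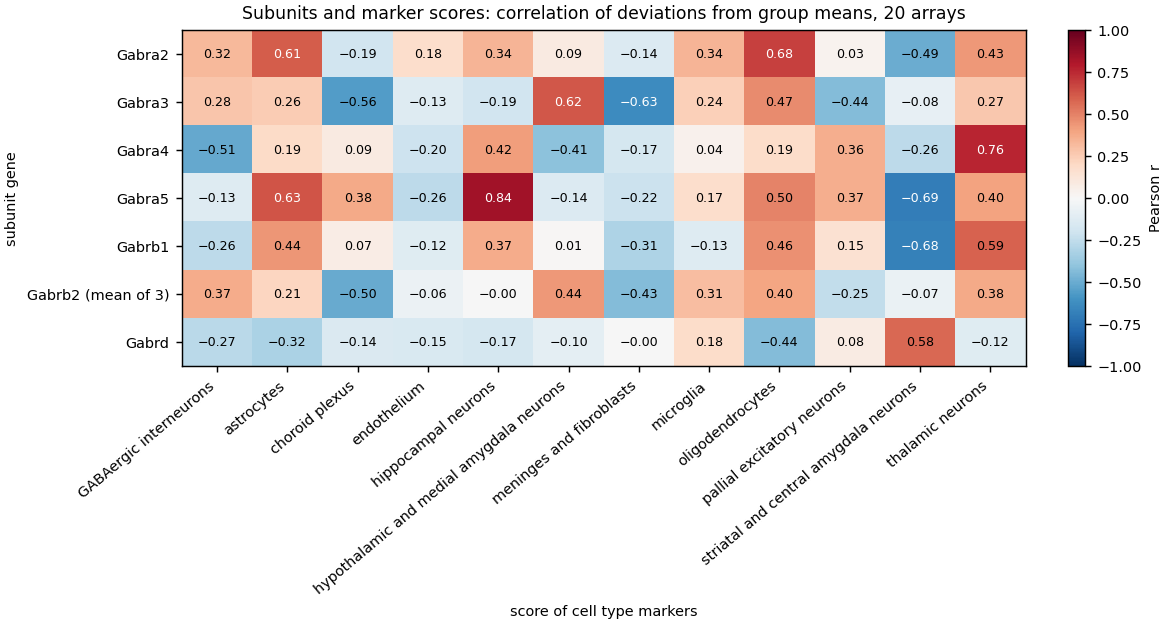
Pearson correlation (colour and number) of the 7 subunit genes (y axis) with the scores of 12 cell type marker lists (x axis), over the deviations of 20 arrays from their group means. Gabra5 with hippocampal markers (0.84) and Gabra4 with thalamic markers (0.76) are the highest, and Gabra5 and Gabrb1 are negative with striatal and central amygdala markers (-0.69 and -0.68).

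**Figure D5:**
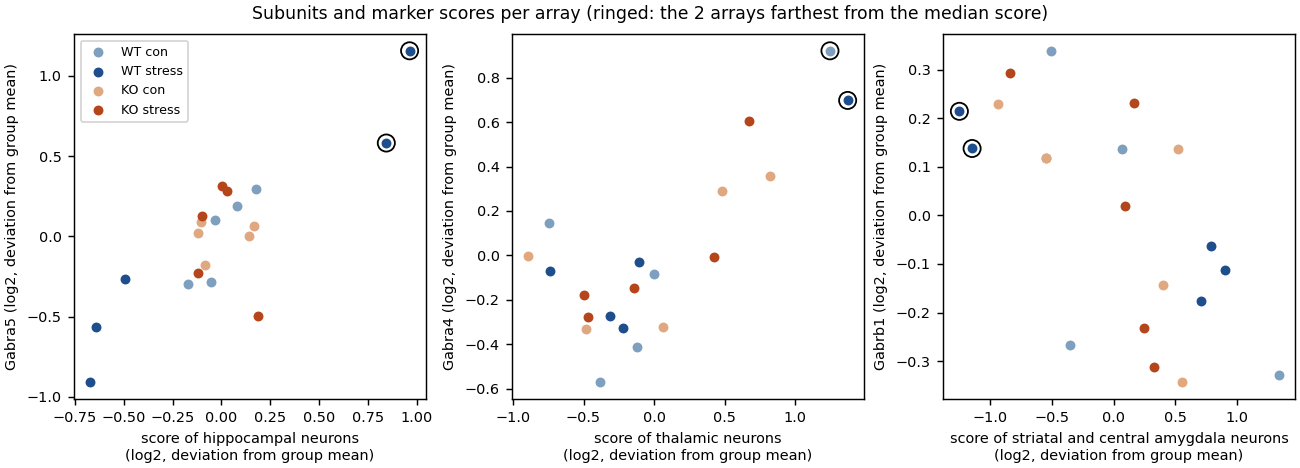
Deviation of Gabra5, Gabra4 and Gabrb1 from their group mean (y axes, log2) against the deviation of a marker score (x axes, log2), 1 point per array and 1 colour per group, with the 2 arrays farthest from the median score ringed. Gabra5 follows the hippocampal score mostly through the WT stress arrays, and Gabrb1 is negative with the striatal and central amygdala score, with r of -0.66 without the ringed arrays.

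The genes whose deviations were most like each member's, over 20 arrays and 21767 probe sets of 1 symbol, were Btbd1 and Elavl1 for Gabra2 (r = 0.94 each), Dzank1 (0.95) and Kcna6 (0.94) for Gabra3, Ramp3 (0.93) and Pdp1 (0.89) for Gabra4, Nmt1 (0.95) and Sdcbp (0.91) for Gabra5, and Armcx2 (0.92) and Rnf185 (0.89) for Gabrb1. For Gabrd they were Syndig1l (0.91) and Rgs4 (0.88). Ramp3 is one of the thalamic markers, which the relation of Gabra4 with that score shares. The 3 Gabrb2 probe sets had Ociad1 and Tmx2 (0.87 each, 10375245), Cmc1 and Zfp637 (0.95 each, 10375259) and Zfp637 and Rab11fip5 (0.90 each, 10375261), so that Zfp637 was common to 2 of them. These values are the highest of many and are given as a description.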

How the data were processed

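Amygdala RNA of 20 mice was measured on Affymetrix Mouse Gene 1.0 ST arrays. The authors summarised and normalised the probe intensities with ExonRMA in ArrayAssist, stabilised the variance and deposited log2 values, which were used without further scaling. Groups came from the sample labels, and symbols from the probe table of the platform (21776 probe sets with 1 symbol, 1618 with several, 5373 with none, 21686 matched to RefSeq by gene identifier). The members and gene lists were chosen with earlier results of these data known.

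All 28767 probe sets were fitted with 1 mean per group (limma 3.58.1, R 4.3.3, 16 residual degrees of freedom) and p-values were adjusted by Benjamini-Hochberg over all of them. The methods' unpaired t-test was an alternative. Single members and named pathway genes were also tested by exact two-sided permutation of 5 against 5 arrays, and relations by 100000 permutations within groups (numpy 2.4.6). The fit was tested on simulated data. Named genes were the members, Slc6a4, the 2 most alike probe sets per member, and per pathway list up to 3 genes with unadjusted p under 0.05. Of a listed gene with several probe sets, that with the highest mean was used. Same-numbered arrays of WT con and WT stress deviated together (r = 0.162 to 0.42, 5 of 5 over 0.1). The highest same-numbered r, 0.512, was between WT stress and KO stress, and arrays of unlike number were not set beside these. The labels give no pairing of mice, and the main tests used none. P-values measure the spread between mice, and precision is limited by 5 arrays per group.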

Additional observations from a re-analysis of the deposited data

Results flagged for a closer look

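Of 36 sets of 5 arrays (9 probe sets in 4 groups), 2 held an array far from the other 4, and chance gives such an array in about 1 of 20 sets. Gabra2 was 9.38 in WT stress replicate 1, where the next lowest array of the group was 10.11, and this array also had the lowest correlation with the rest. Gabra4 was 10.12 in WT stress replicate 5, where the next highest was 9.39, and the thalamic score of that array was among the 2 farthest from the median.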

How the results depend on the processing

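Of the 9 probe sets, the number at an unadjusted p under 0.05 was small in every comparison and moved by 1 or 2 under many settings, and under none of the settings did a member pass the adjusted threshold. In KO stress against KO con (2 at first) it was 4 by the methods' t-test, 4 by limma on the 2 groups alone, 3 with the thalamic score, 3 with the hippocampal score, and 0 with the choroid plexus or the meninges and fibroblasts score as a covariate (the last 3 scores chosen after seeing the data). The Welch test also gave 2, but with Gabra4 in place of Gabrb2 probe set 10375245. In stress KO against stress WT (1) the member count was 0 by the Welch test and 0 with the hippocampal score (chosen after seeing the data). It was 2 with quantile normalization, the filter on a mean log2 value of 6, eBayes with trend and robust settings, or the thalamic score. All probe sets past it numbered 2670 at first and 1038 by the Welch test, then 2665, 1577 (of those kept by the filter), 2786 and 1945. With centred array medians the member count stayed 1, but with Gabra3 (0.49, SE 0.22) in place of Gabrb2 probe set 10375245. With the choroid plexus or the meninges and fibroblasts score Gabra3 was 0.62 (SE 0.20) or 0.68 (SE 0.19). Gabra3 was then past the unadjusted threshold and that Gabrb2 probe set was not. In con KO against con WT (0) the member count was 1 by limma on the 2 groups alone. Beside it stood 2092 of all probe sets (1026 at first). In WT stress against WT con (0) the member count was 1 with the striatal and central amygdala score and 1 with the thalamic score. Beside these stood 1173 and 1055 of all probe sets (1019 at first). For the interaction (0) the member count was 2 with array weights and 2 without both arrays that stand apart. It was 1 with the striatal and central amygdala score and 2 with the thalamic score. All probe sets past the threshold numbered 1319 with array weights, 1365 without those arrays and 874 with the striatal and central amygdala score (724 at first). For stress averaged over genotypes (0) the member count was 2 with quantile normalization and 2 with centred array medians. Beside these stood 472 and 407 of all probe sets (479 at first). For genotype averaged over conditions (1) it was 0 without both arrays that stand apart and 2 with the striatal and central amygdala score. The cause of these moves was not tested.

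With each array left out in turn, the number ran from 0 to 1 in WT stress against WT con, 1 to 3 in KO stress against KO con, 0 to 1 in con KO against con WT, 0 to 2 in stress KO against stress WT, 0 to 2 for the interaction, 0 to 2 for stress averaged over genotypes and 1 to 1 for genotype averaged over conditions. The KO difference of Gabrb2 probe set 10375245 ran from -0.50 to -0.28 and its p from 0.00342 to 0.0369, while the p of 10375261 reached 0.1 without KO stress replicate 4.

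With the replicate block in all groups, the number was 2 for stress KO against stress WT, 1 for the interaction and 2 for stress averaged over genotypes. Beside these stood 3574, 1050 and 606 of all probe sets (2670, 724 and 479 at first). With the block in the 2 groups alone the member count was 4 for KO stress against KO con. It was 1 for con KO against con WT and 3 for stress KO against stress WT. Beside these stood 1276, 2620 and 2043 of all probe sets (326, 1026 and 2670 at first). In WT stress against WT con the block left the member count at 0. The labels give no pairing by replicate number, so all blocked counts rest on numbers that mark no known pair. Against the values first given, 0 results changed direction under a setting where they had passed the unadjusted threshold. Quantile normalization and centred medians moved the median of all probe sets by 0.04 at most. The named genes of the pathway lists were also fitted with each array left out and without both arrays that stand apart, a choice made after seeing the data. Precision is limited by 5 arrays per group and by the background of the arrays, which was not measured here.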
